A study of Homo sapiens with 4 samples.

Results

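ADAR-bound RNA was examined across the numbered ZNF genes of human chromosome 19 in K562 cells, a chronic myeloid leukaemia line that the labels call a lymphoblast cell. The members were the 246 protein-coding genes of chromosome 19 in RefSeq GRCh38 whose symbol is ZNF plus a number, out of 20050 protein-coding genes in all. A peak cluster belonged to a gene when its midpoint lay in the gene span on the gene's strand. The strand was given in the RefSeq promoter table for 216 members (116 on the plus and 100 on the minus strand), and the other 30 were left out of the counts. These genes held 3519 of 534161 clusters in replicate 1, 1246 of 155848 in replicate 2, and 10 of the 1717 peaks in the authors' combined list, whose entries are named reproducible peaks below.

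The method was enhanced crosslinking and immunoprecipitation (eCLIP), in which RNA held to a protein by ultraviolet light is pulled down and sequenced. An antibody against ADAR1 was used for 2 immunoprecipitated (IP) libraries, and 2 input libraries had no antibody, all from untreated K562 cells crosslinked at 254 nm and 400 mJ/cm2. The RNA came from the part of a gel reaching 75 kDa over the size of ADAR. IP and input are numbered 1 and 2, and nothing in the labels says that the numbers are separate cultures, so a difference between them may be technical.

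ADAR deaminates adenosine to inosine where RNA is double-stranded, in human transcripts mostly where neighbouring Alu repeats pair with each other. Most ZNF genes of chromosome 19 encode proteins with a row of C2H2 zinc fingers that bind DNA, and many carry a KRAB domain that recruits the corepressor TRIM28. They arose by tandem duplication, many of them in primates, and many silence transposable elements. Neighbours can be near-identical in sequence. The sources used here do not say how reads that fit several copies were placed, so a value may be shared between close paralogs.

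Of the 216 genes, 176 had a cluster in replicate 1 and 135 in replicate 2, and 38 had none in either. A cluster was called enriched when the authors' fold of IP over input was at least 3 on the log2 scale and their −log10 p was at least 3. By this rule 71 clusters in 25 genes were enriched in replicate 1, and 184 clusters in 61 genes in replicate 2. The genes thus called were 14.2% and 45.2% of those with a cluster, beside 16.4% and 44.3% over all protein-coding genes. Enriched clusters made up 2.02% and 14.8% of those in the genes, beside 1.33% and 13.1% of the clusters in all protein-coding genes and 1.39% and 12.8% of all clusters. The shares of genes lie near the background in both replicates, and so does the share of clusters in replicate 2. In replicate 1 the share of clusters was over 1.5 times that in all protein-coding genes, and without 1 gene, ZNF805, it was 1.54%.

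Both replicates called 20 genes (11.2% of the 178 genes with a cluster in either, beside 12.5% over all protein-coding genes). A further 41 were called in replicate 2 alone and 5 in replicate 1 alone, named after their values were seen: ZNF420, ZNF791, ZNF529, ZNF850 and ZNF787. The other 112 genes with a cluster had none that was enriched. A single enriched cluster was found in 9 genes of replicate 1 and 17 of replicate 2, while 4 and 12 genes had 5 or more. Touching clusters merged into 40 sites in replicate 1 and 161 in replicate 2.

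**Figure D1:**
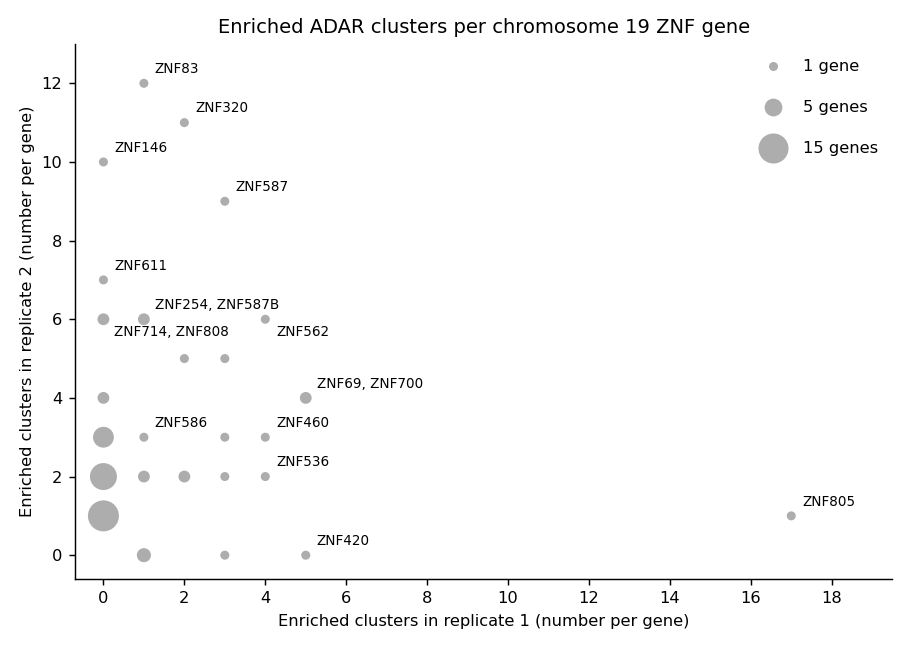
Number of enriched clusters per ZNF gene in replicate 1 (horizontal) and replicate 2 (vertical), for genes with at least 1, the area of a point growing with the number of genes at that place. ZNF805, with 17 and 1, lies far to the right, while ZNF83 (1 and 12), ZNF320 (2 and 11) and ZNF146 (0 and 10) lie along the vertical axis.

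The read numbers behind the enriched clusters could be recovered from fold and p for all 71 and all 184, if the most frequent fold stands for 3 reads in IP and 1 in input. Replicate 1 had between 37 and 597 IP reads in an enriched cluster (median 112), and replicate 2 between 9 and 175 (median 17). The input was thin, with a median of 2 reads in each replicate and at most 13 and 11. It was 1 read in 47.9% of the enriched clusters of replicate 1 and 34.2% of those of replicate 2, where the fold has little precision. With at least 2 input reads, 37 clusters in 11 genes were left in replicate 1 and 121 clusters in 45 genes in replicate 2.

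The promoter windows are shown because they are the parts of these genes whose sequence was at hand, and because the clusters there were few and low. The windows of RefSeq GRCh38.p14 run from 250 bases before to 50 bases after a listed start. The 216 genes had 268 windows, and some starts lie well inside the span. In these windows, 29 of the 176 genes with a replicate 1 cluster had one (16.5%, beside 31.3% of all protein-coding genes). None of the 35 clusters was enriched, which allows a share of up to 8.57%. This includes the 1.33% of replicate 1 clusters in all protein-coding genes, so the 0 does not set these windows apart. In replicate 2 the windows of the 135 genes with a cluster held 0 clusters, which allows up to 2.22% of genes, beside 9.67% of all protein-coding genes. The members also held fewer clusters per gene with one, 20.0 beside 38.1 in replicate 1 and 9.23 beside 14.5 in replicate 2. The part of this in the shares was not tested. The 3 windows below belong to genes with enriched clusters further in that overlapped between replicates, and had a replicate 1 cluster of log2 fold above 1 covering at least 10 bases. The bases under that cluster are in capitals. The windows lie at chr19:11814023-11814322 on the plus strand for ZNF440, chr19:52690447-52690746 on the minus strand for ZNF83, and chr19:57769426-57769725 on the plus strand for ZNF586.
ZNF440: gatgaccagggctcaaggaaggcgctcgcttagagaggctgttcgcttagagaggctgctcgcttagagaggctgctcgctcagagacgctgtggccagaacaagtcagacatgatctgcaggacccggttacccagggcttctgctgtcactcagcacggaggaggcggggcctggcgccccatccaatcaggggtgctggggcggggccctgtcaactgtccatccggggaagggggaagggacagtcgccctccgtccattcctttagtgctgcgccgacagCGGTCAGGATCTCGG
ZNF83: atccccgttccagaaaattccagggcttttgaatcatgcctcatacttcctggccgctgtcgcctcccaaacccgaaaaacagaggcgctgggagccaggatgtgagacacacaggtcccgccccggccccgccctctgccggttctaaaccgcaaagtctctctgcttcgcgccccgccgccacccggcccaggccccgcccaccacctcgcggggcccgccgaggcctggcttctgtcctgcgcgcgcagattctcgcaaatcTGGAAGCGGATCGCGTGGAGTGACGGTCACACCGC
ZNF586: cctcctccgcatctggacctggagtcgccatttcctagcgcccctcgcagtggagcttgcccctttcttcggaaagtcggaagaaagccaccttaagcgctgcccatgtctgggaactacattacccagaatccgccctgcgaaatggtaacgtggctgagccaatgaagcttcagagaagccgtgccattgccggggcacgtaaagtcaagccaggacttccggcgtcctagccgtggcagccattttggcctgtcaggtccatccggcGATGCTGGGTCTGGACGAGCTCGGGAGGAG
The log2 folds of these clusters in replicate 1 were 1.59 for ZNF440, 1.44 for ZNF83 and 1.44 for ZNF586. In each gene the covered bases began shortly after the start. Each of these starts is where the gene span begins. A cluster needed its midpoint in the span, so this position was largely fixed by that rule. The windows were rich in G and C, at 63.3%, 65.7% and 59.7%, and held 18, 29 and 20 CG pairs. The median over the 268 windows of the members was 60% and 20 CG pairs, and over all windows of protein-coding genes 62.3% and 21.

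The reproducible list held 10 peaks in 5 of the genes, ZNF562, ZNF536, ZNF320, ZNF586 and ZNF587B. This is 2.81% of the 178 genes with a cluster, beside 4.04% over all protein-coding genes. The peaks merged into 5 sites, 1 per gene. Their median log2 fold was 4.93, against 4.62 over the whole list. An enriched cluster of both replicates lay under 9 of the 10.

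ZNF562, a C2H2 zinc finger gene on the minus strand at positions 9641807 to 9675100, held 4 touching peaks between 9673183 and 9673262, from 1838 to 1917 bases after its start. In replicate 1 the 4 clusters there had log2 folds of 3.29, 4.62, 3.60 and 3.74, with 65 to 164 IP reads over 2 or 3 input reads. In replicate 2 the same stretch was split into 2 clusters at 6.72 and 6.29, from 175 and 130 IP reads over 3 input reads each. This was the deepest enriched site of replicate 2 in these genes. The gene had 49 clusters in replicate 1 with a median of 0.14, so the site stood out from the rest of its transcript. In replicate 2 its 35 clusters had a median of 2.27, and 4 more were enriched. One of them, at 9667680 to 9667751, reached 5.69 (57 reads over 2).

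ZNF536, a zinc finger gene known from the nervous system, spans 487995 bases and had only 5 clusters in replicate 1 and 2 in replicate 2. All of its enriched clusters lay within 22 bases, 30313237 to 30313258, with the first reproducible peak centred 87651 bases after the start. In replicate 1 the log2 folds were 4.61, 4.70, 4.70 and 4.70, in pieces of 2 to 9 bases with 243 to 259 IP reads over 3. In replicate 2 both pieces had 7.08, from 75 reads over 1. Pieces this short with the same read numbers may count the same reads, and they merge into 1 site.

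ZNF320 had 2 touching peaks between 52886786 and 52886858 on the minus strand. They had log2 folds of 4.40 and 4.49 in replicate 1, from 70 and 75 IP reads over 1 input read. Replicate 2 had 1 wider cluster there at 4.06, from 74 reads over 8, so its input was the better covered. The gene differed between replicates outside this site: replicate 2 called 11 of its 29 clusters and replicate 1 called 2 of 41.

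ZNF586 and ZNF587B lie close together near the end of the long arm. The ZNF586 peak at 57770960 to 57770987 had a log2 fold of 4.24 in replicate 1 (63 reads over 1). In replicate 2 it fell across 2 of a run of 3 touching clusters at 3.57, 5.67 and 4.46. Nearly all of it lay under the last, with 73 reads over 6, and only its first bases under the middle, with 113 over 4. The ZNF587B peak at 57845782 to 57845826, centred 434 bases before the gene's end, had 4.92 in replicate 2 (84 reads over 5). In replicate 1 the highest cluster under it reached 2.99, just below the threshold, so only the replicate 2 cluster passed it.

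**Figure D2:**
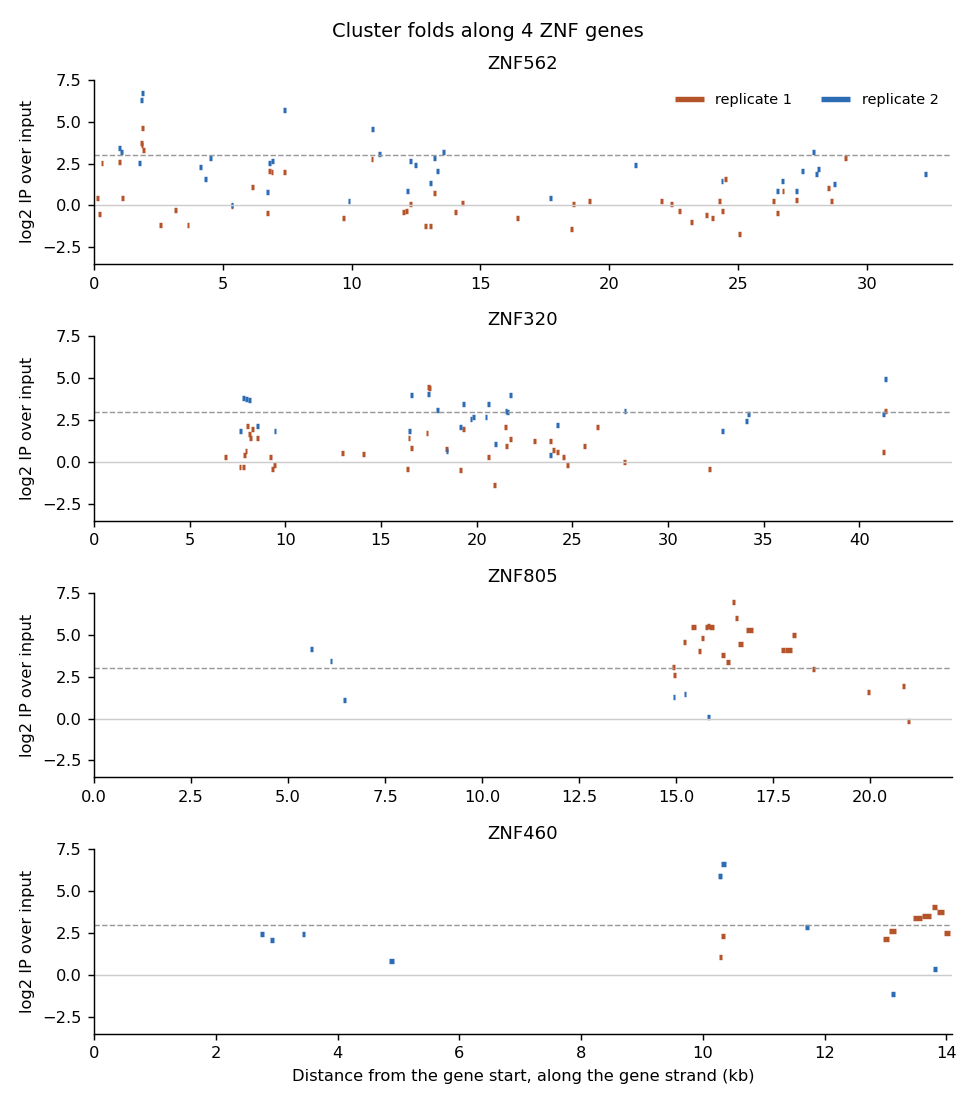
Log2 fold of IP over input of each cluster against its distance from the gene start in kb, for ZNF562, ZNF320, ZNF805 and ZNF460, replicate 1 in red-brown and replicate 2 in blue, short clusters drawn wider than they are and the dashed line at log2 fold 3. At the reproducible peaks both colours pass the line, in ZNF562 with up to 4.62 and 6.72 and in ZNF320 with up to 4.49 and 4.06, and near the end of ZNF320 they also do, at 3.07 in replicate 1 without passing the −log10 p threshold. In ZNF805 and ZNF460 they pass it at different places.

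The replicate with the higher signal differed between genes. ZNF805 had 17 enriched clusters of 22 in replicate 1 and 1 of 6 in replicate 2. The 17 lay between 57255540 and 57258712 on the plus strand, their midpoints 67.6% to 81.6% of the way along the gene. Their log2 folds ran from 3.06 to 6.98, the highest from 421 IP reads over 1 input read and the deepest, at 5.49, from 597 over 4. Of the 17, only 5 were overlapped by any replicate 2 cluster, at log2 folds of 0.12 to 1.44. The 2 of these whose reads could be recovered had 4 IP reads over 3 input reads and 3 over 2. The enriched cluster of replicate 2 lay elsewhere, at 57246187 to 57246265, with 10 reads over 1. Without ZNF805, replicate 1 had 54 enriched clusters in the other genes, 1.54% of their clusters.

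ZNF420, a KRAB zinc finger gene known as a regulator of p53, had 5 enriched clusters of 37 in replicate 1 and 0 of 3 in replicate 2. A run of 4 touching clusters at 37057431 to 37057496 had log2 folds of 5.44, 5.77, 5.79 and 3.66, with 42 to 184 IP reads over 1 input read. No replicate 2 cluster overlapped it. ZNF460 had separate sites in the replicates. Its 4 enriched clusters of replicate 1 lay in the last 630 bases of the gene at 3.40 to 4.06 (167 to 458 reads over 3 to 13), and the single replicate 2 cluster overlapping them had 0.37. Its 3 enriched clusters of replicate 2 lay at 57290246 to 57290363 with 5.90, 5.90 and 6.61, where replicate 1 had 1.07 to 2.35.

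Of the other genes with 3 or more enriched clusters in replicate 1, ZNF426, ZNF8, ZNF69, ZNF700 and ZNF587 were called at the same place in replicate 2. ZNF791 and ZNF814, named after their values were seen, were not: each had 3 in replicate 1, and the overlapping replicate 2 clusters had at most 2.73 and 2.59. ZNF426 had 3 touching clusters at 9524924 to 9525013 with log2 folds of 5.22, 4.91 and 5.78 (183 to 248 reads over 1 or 2), and a replicate 2 cluster there had 3.90 (33 over 4). ZNF8 had 5.12, 4.67 and 3.14 near 58299739 in replicate 1 and 4.31 and 4.55 in replicate 2, in a stretch that also belongs to the readthrough gene ZNF8-ERVK3-1. ZNF700 had 5 clusters of 3.55 to 3.76 at 2 sites, each overlapped by a replicate 2 cluster at 3.18 or 3.28. These lie inside the span of ZNF69 as well, so the 5 are counted under both names and the transcript cannot be told from the clusters.

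ZNF83 had more clusters than any other member, with 120 in the first replicate and 53 in the second. In replicate 2, 12 of them were enriched at 3.44 to 5.81, with midpoints from 3.51% to 93.4% of the way along the gene. In replicate 1 only 1 was enriched, at 52682781 to 52682867 with 3.91 (50 reads over 1), where replicate 2 had 3.55 (13 over 2). Replicate 1 also covered 10 enriched clusters of replicate 2 where it had no enriched cluster itself. Its folds were lower in all 10, at 0.03 to 3.40, which that choice of clusters largely fixed in advance. Of the 13 enriched clusters in the 2 lists, 8 also lay in the span of the uncharacterised gene LOC122539214.

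ZNF146, which encodes a small protein made almost wholly of zinc fingers, had 10 enriched clusters of 38 in replicate 2 and 0 of 50 in replicate 1. Its log2 folds in replicate 2 ran from 3.44 to 4.76, and the best covered cluster, at 36224251 to 36224319, had 3.49 from 56 reads over 9. Replicate 1 clusters overlapped 8 of the 10, at −0.21 to 2.37. ZNF611 was alike, with 7 of 26 in replicate 2 at 3.18 to 5.50 and 0 of 44 in replicate 1, where the overlapping clusters had 0.27 to 1.27. Both genes were thus called in replicate 2 alone, while replicate 1 had clusters at most of the same places.

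ZNF587, a primate KRAB zinc finger gene that represses endogenous retroviruses, had 9 enriched clusters of 26 in replicate 2 and 3 of 39 in replicate 1. All 3 of replicate 1 were matched in replicate 2: the cluster at 57860593 to 57860634 had 3.22 in replicate 1 (62 reads over 2), beside 4.50 in replicate 2 (25 over 2), and the pair at 57864388 to 57864433 had 4.15 and 4.12, beside 3.79. ZNF587B, its neighbour and close copy, had 6 of 25 and 1 of 39. Its only enriched cluster in replicate 1, at 57836586 to 57836650, had 3.76 (45 over 1) beside 4.38 in replicate 2 (23 over 2).

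ZNF254 had 6 enriched clusters of 32 in replicate 2 and 1 of 95 in replicate 1, at different places. ZNF808 had 6 of 36 in replicate 2 and 0 of 46 in replicate 1, where the overlapping clusters reached 2.51. ZNF544, with 92 and 41 clusters, had 0 and 4 enriched, and ZNF100, with 71 and 21, had 2 and 2 that did not overlap. ZNF544 and ZNF254 thus had among the most clusters in replicate 1 and at most 1 call there.

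Besides ZNF536, ZNF562 and ZNF460, replicate 2 had high folds in ZNF382 and ZNF626. ZNF382, a KRAB zinc finger repressor, had 2 clusters in replicate 2, both enriched, at 36628962 to 36629006 (log2 fold 6.31) and 36629854 to 36629904 (6.35), from 44 and 45 reads over 1. Replicate 1 had 1.93 and 1.95 there, from 76 and 77 reads over 6, so the same places were well covered and lower. ZNF626 reached 5.81 in replicate 2 (31 over 1) at 20660002 to 20660110, where replicate 1 had 1.77 (34 over 3). Anywhere in the gene, replicate 1 had 2.44 at most.

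Of the 71 enriched clusters of replicate 1, 32 were overlapped by an enriched cluster of replicate 2 on the strand (45.1%, exact 95% interval 33.2 to 57.3), beside 41.9% over all enriched clusters. In the other direction it was 22 of 184 (12%, interval 7.65 to 17.5), beside 14.0%. With ZNF805 included, both intervals cover counting error only and include the value over all enriched clusters, and touching clusters make them too narrow. The overlaps lay in 14 genes: the 5 with reproducible peaks, ZNF426, ZNF8, ZNF700, ZNF587 and ZNF83, and also ZNF101, ZNF726, ZNF776 and ZNF440. Without ZNF805, left out after its values were seen, the first share was 59.3% (32 of 54, interval 45 to 72.4). None of the 17 ZNF805 clusters was overlapped by an enriched one, so leaving it out could only raise the share. The nearness of 45.1% to 41.9% thus depends in part on that gene. The 59.3% is not compared with 41.9%, which keeps such genes.

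ZNF101 had log2 folds of 3.88 and 4.05 in replicate 1 (49 and 55 reads over 1) and 5.58 in replicate 2 (53 over 2) at 19670346 to 19670414. ZNF776 had 3.91 in replicate 1 (50 over 1) and 5.50 and 5.71 in replicate 2 (25 and 29 over 1). ZNF440 had 3.69 (43 over 1) and 4.41 (47 over 4), and ZNF726 had 4.10 (57 over 1) and 3.50 (25 over 4). In each of these 4 genes, IP exceeded input past both thresholds at 1 place in both replicates, although none is in the reproducible list.

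A cluster enriched in replicate 2 was usually present in replicate 1 at a lower fold. Any replicate 1 cluster overlapped 159 of the 184 (86.4%), with a median log2 fold of 1.51, and 147 of the 159 (92.5%) were above 0. Over all enriched clusters of replicate 2 the values were much the same: 88.4% overlapped, a median of 1.73 and 92.5% above 0. Across 704 clusters of 119 genes paired by best mutual overlap, the median was 0.46 in replicate 1 and 2.21 in replicate 2, and 630 were higher in replicate 2. Pearson's r between the replicates was 0.52 and Spearman's rho 0.50, given as a description, since clusters of a gene share libraries and depth. The depth of IP relative to input, as inferred from the same assumption on the most frequent fold, also differed, at 3.33 in replicate 1 and 0.553 in replicate 2, and its part in these differences was not tested.

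**Figure D3:**
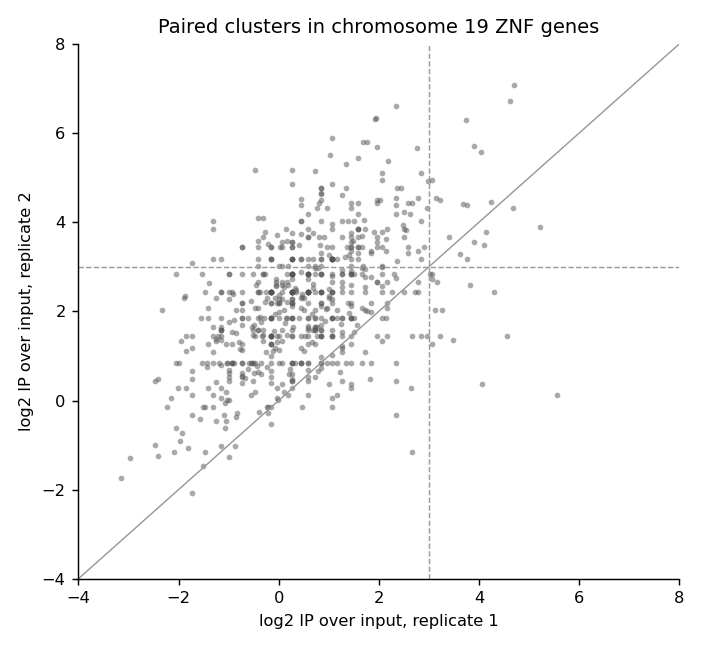
Log2 fold in replicate 1 (horizontal) against replicate 2 (vertical) for 704 paired clusters in the ZNF genes, with the diagonal and dashed lines at log2 fold 3. Of the points, 630 lie above the diagonal, and 19 are at or past 3 on both axes.

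Along the genes, cut into 5 equal parts from start to end, the clusters were spread almost evenly, with 18.4% to 21.5% in each part in replicate 1 and 18.2% to 21.6% in replicate 2. The last part held 29.6% of the enriched clusters in replicate 1 (21 of 71, exact 95% interval 19.3 to 41.6) and 17.9% in replicate 2 (33 of 184, interval 12.7 to 24.3). Both intervals include the share of all clusters there, 21.5% and 19.3%. The zinc fingers of these genes are usually encoded in the last exon, but exons were not assigned here. In genes over 10 kb, 15 of 71 enriched clusters of replicate 1 (21.1%) and 17 of 180 of replicate 2 (9.44%) lay within 3 kb of the end, beside 12% and 10.3% of all clusters in these genes.

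**Figure D4:**
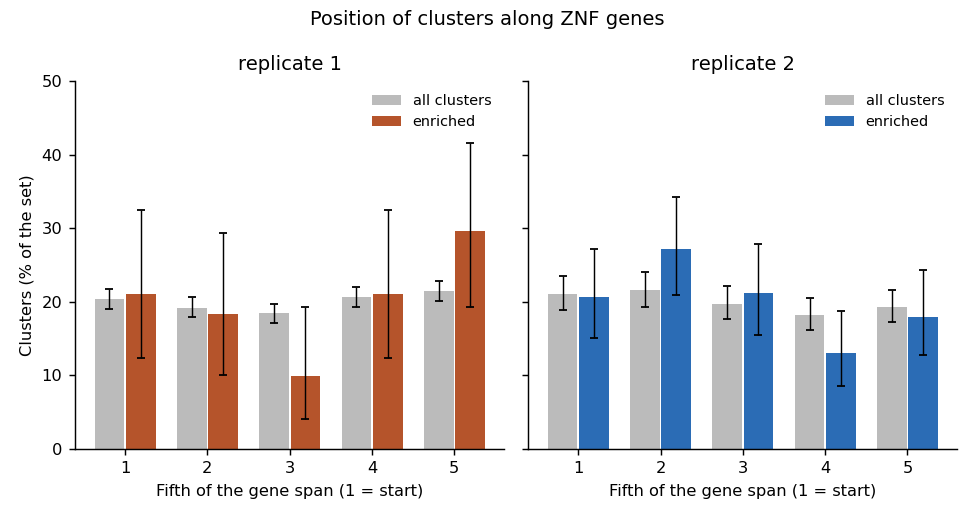
Share of clusters (%) in each of 5 equal parts of the gene span, numbered from the start, for all clusters (grey) and enriched clusters (coloured), with exact 95% binomial intervals as error bars, left for replicate 1 and right for replicate 2. The enriched bars of the last part stand at 29.6% and 17.9%, and both error bars include the grey bars beside them.

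Along the chromosome, the calls lay mainly where the genes lie. The 86 genes between 51 and 59 Mb (megabases), at the end of the long arm, had 37 enriched clusters in replicate 1 (2.83% of their clusters) and 90 in replicate 2 (17.5%), and 3 of the 5 genes with reproducible peaks. ZNF805 lies here, and without it replicate 1 had 20 of 1285 (1.56%). No gene was left out of the other groups, so this share is not ranked against theirs. The 29 genes between 19 and 26 Mb, next to the centromere, had 7 (0.861%) and 40 (14.6%). The 36 genes between 8 and 13 Mb had 16 (2.42%) and 22 (9.09%), and the 36 between 26 and 43 Mb had 11 (2.17%) and 21 (13.1%). The 21 genes between 43 and 51 Mb had 0 of 142 in replicate 1, which allows up to 2.11%, and 5 of 30 in replicate 2. The 7 genes below 8 Mb had 0 of 60 and 3 of 19, and the 1 gene between 13 and 19 Mb had 0 of 29 and 3 of 6. The differences between these groups were not tested.

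Among like genes, the 214 ZNF genes of other chromosomes had 47 enriched clusters of 5234 in replicate 1 (0.898%) and 211 of 1629 in replicate 2 (13%). The 969 other protein-coding genes of chromosome 19 had 2.4% and 12.8%. In the reproducible list these groups had 7 and 15 genes, of 183 and 677 with a replicate 1 cluster. The 13 ZFP, ZSCAN, ZBTB and ZIK genes of chromosome 19 had 15 enriched clusters in replicate 1, all in 1 gene, and 4 in replicate 2. No test of these differences was made, since each list has 1 value per cluster and clusters of a gene are not independent.

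Some members are known for their targets and are given for that reason, outside the rule for named genes and with their values already seen. ZNF91, which represses SVA and LINE-1 elements, had 0 enriched clusters of 43 in replicate 1 and 1 of 11 in replicate 2. ZNF274, which brings the methyltransferase SETDB1 to zinc finger genes, had 0 of 39 and 2 of 12. Neither had a reproducible peak.

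The corepressors that KRAB zinc finger proteins work through were taken as the other genes of the pathway. Of 26 listed, 21 had a strand in the table, and TRIM28 itself did not. An enriched cluster was found in 7 of the 21 in replicate 1 and 14 in replicate 2, which is 33.3% and 70% of the 21 and 20 with a cluster, beside 16.4% and 44.3% over all protein-coding genes. They also held more clusters per gene with one, 67 beside 38.1 in replicate 1 and 22.1 beside 14.5 in replicate 2, and the part of this in the shares was not tested. The share of their clusters that was enriched was not computed. The shares of genes are therefore not read as more frequent enrichment in the corepressors. Reproducible peaks lay in 2 of the corepressors. CBX3, a heterochromatin protein that reads methylated histone H3, had 4 of 26 and 2 of 13 and held 4 reproducible peaks up to log2 4.57. MORC3, an ATPase that represses retroelements, had 4 of 104 and 12 of 49 and held 1 at 4.93. DNMT1, the maintenance DNA methyltransferase, had 0 of 138 in replicate 1 and 13 of 63 in replicate 2, up to 4.66, and SETDB1 had 0 of 37 and 1 of 8.

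The labelled cell line was checked by which marker genes had clusters. All 8 K562 or erythroid markers with a strand had a cluster in replicate 1 and 7 in replicate 2, 844 and 350 clusters in all. Most of these lay in BCR (215 and 84) and ABL1 (340 and 174). TFRC had 156 and 54, GYPC 60 and 15, TAL1 44 and 16, GATA1 14 and 5, EPOR 10 and 2, and KLF1 5 and 0. Of 8 hepatocyte markers 1 (TF) had a single cluster in replicate 1 and none had any in replicate 2. Of 3 lymphoid markers, CD3D and PTPRC had 60 clusters together in replicate 1, none enriched, and 0 in replicate 2. The label's word lymphoblast was not examined further.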

How the data were processed

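The tools named, per the submitters' processing notes, are cutadapt 1.9 and STAR 2.4.0i. Several genome builds are named there, and no source used here names the caller of the peaks. The authors deposited 3 peak lists with a −log10 p and a log2 fold of IP over input per cluster. In the deposited lists −log10 p goes no higher than 400. Total reads per library are unknown. The read numbers behind a cluster were recovered as the whole numbers whose ratio gives the deposited log2 fold and whose p (binomial, or chi-square with Yates' correction where both are at least 5) gives the deposited −log10 p within 0.02, a margin that grows in proportion above a −log10 p of 10. Per the labels, each IP has an input of the same number.

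Gene spans came from RefSeq GRCh38.p14, and strands from the RefSeq promoter table. For 30 members without one, a strand from clusters (at least 5 in the gene alone, at least 80% on 1 strand) was an alternative. This call matched the table in 130 of 132 members. Coordinates count from 1. A cluster in several members is counted once in totals and under each gene by name. Python 3.11.15, pandas 2.3.3 and scipy 1.17.1 were used, and gene assignment and read recovery were tested on simulated data. Intervals are exact binomial (Clopper-Pearson).

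The named genes were all members with a reproducible peak, the 8 with the most enriched clusters and the 5 with the highest enriched fold or the most clusters in each replicate (ties broken by the higher fold, which left out ZNF714, ZNF791 and ZNF814), and up to 15 with overlapping enriched clusters. The members and lists were chosen with earlier results of these data known. No test between groups was made, since each replicate gives 1 authors' value per cluster.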

Additional observations from a re-analysis of the deposited data

Results flagged for a closer look

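On the strand opposite to the genes, replicate 2 had 5 enriched clusters of 50 inside the member spans, of which 4 lay in ZNF529-AS1, and replicate 1 had 0 of 122. They lie outside the counts of the report, which use the gene's strand. In the spans of the 30 members without a strand, either strand together, 3 enriched clusters of 290 were found in replicate 1 and 12 of 93 in replicate 2. No reproducible peak lay in either set. Over all clusters, 1.39% were enriched in replicate 1 and 12.8% in replicate 2. The shares in both sets lie near or below these, so they are not read as a result about the genes.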

How the results depend on the processing

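Several counts moved by more than 1.5 times under stricter thresholds, while others, such as the genes of replicate 2 (61 to 45), did not. At log2 fold 4, replicate 1 had 36 enriched clusters in 13 genes and replicate 2 had 97 clusters. At −log10 p 5, replicate 1 had 14 genes and replicate 2 had 110 clusters. With at least 2 input reads there were 37 clusters in 11 genes in replicate 1 and 121 clusters in replicate 2. Merging touching clusters left 40 sites in replicate 1, and 5 reproducible sites in place of 10 peaks. The share of replicate 1 calls overlapped by replicate 2 was 30.6% at log2 fold 4, 64.8% when any cluster counted and 59.3% without ZNF805. The reverse share was 86.4% when any cluster counted. The causes were not tested, apart from the merging, the looser overlap and leaving out ZNF805, which act by construction. The authors made the combined list from both replicates, so it could not be remade without one. All 10 of its peaks in these genes had an enriched cluster of replicate 2 (5 genes). An enriched cluster of replicate 1 lay under 9 (4 genes, without ZNF587B). These numbers do not show what leaving a replicate out would do. Of 74 values under alternatives, 60 stayed within these limits. Leaving out ZNF805 and taking strands from clusters were chosen after seeing the data. No paired analysis was possible because IP and input of a number are already joined in each deposited fold, and no result comes from a test across samples. Thin input limits the folds.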
